A study of Mus musculus and Homo sapiens with 9 samples.

Results

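The mouse loci Lars2, Gm26917, Kctd16 and Gm4076 were examined in CUT&Tag peak lists from mouse embryonic fibroblasts (MEFs). They were chosen by measured values, because their peaks had been seen among the strongest or most recurrent of these same lists, so peak strength at these loci is given here as a description. All peaks over the 4 gene bodies plus 1 kb on each side (GENCODE M21, mm10) were taken, which gave 20 peaks of the 44427 in the 5 MEF lists. Of these 20, WT had 5, KO 4, shControl 3, shDdx5 5 and the library without primary antibody 3.

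The MEFs were taken from the trunks of E13.5 embryos, immortalised with lentivirus SV40gp6 and selected with puromycin. WT cells were Mcm8 wildtype, and KO cells were Mcm8 knockout, made from mice in which CRISPR/Cas9 removed a segment of Mcm8 with exon 7. In shDdx5 cells an adenovirus carried a short hairpin RNA against the RNA helicase DDX5, and shControl cells were its control. For shControl and shDdx5 the labels give no Mcm8 genotype. All 4 were profiled with the S9.6 antibody, which binds RNA-DNA hybrids, and the negative control was a wildtype MEF library with no primary antibody. Each group held 1 library, so every difference below compares libraries and not conditions, no test was possible, and every interval is a 95% counting interval that covers counting error only.

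R-loops are structures in which an RNA pairs with 1 DNA strand and leaves the other unpaired. In CUT&Tag an antibody brings a transposase to its target, and the enzyme tags the DNA beside it for sequencing. A library without primary antibody records the tagging that does not need the antibody. Ribosomal DNA and mitochondrial DNA are both present in many copies per cell, and pieces of both are scattered through the nuclear chromosomes, where a read from one copy can be hard to tell from a read of another. How reads that match several places were treated is not given in the sources used here, so the values at Gm26917, Gm4076 and Lars2 cannot be tied to these places alone.

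For each peak the lists give a fold between the summit and the background around it, as the peak caller estimates it, called the local fold here. From the local fold and its p, the whole number of fragments at the summit (the pileup) was solved for every peak. The pileup divided by the lowest background of the list is called the genome-wide enrichment, and it puts libraries of unequal depth on 1 scale. The lowest background was 1.31 to 1.67 fragments in the S9.6 libraries and 0.191 fragments without antibody, so the S9.6 libraries were 6.82 to 8.74 times as deep by this measure. The weakest no-antibody peak held 3 fragments, a genome-wide enrichment of 15.7, while the weakest S9.6 peaks held 6 or 7 fragments, 4.15 to 4.59. The median peak had a genome-wide enrichment of 5.53 to 6.89 in the S9.6 lists and 15.7 in the no-antibody list.

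Gm26917 (ENSMUSG00000097971.3), a long intergenic noncoding RNA gene at chr17:39843013-39846341 on the plus strand, held the highest pileup of each of the 5 lists. Its annotation lies directly before CT010467.1, an entry annotated as ribosomal RNA on the opposite strand. The peak covered 3490 to 3514 bp in the S9.6 lists and 3286 bp without antibody, and it ran 320 to 358 bp past the end of Gm26917 into CT010467.1. The summit lay at the same base, 39843540, in all 4 S9.6 lists, and at 39845116 in the no-antibody list. The 201 bases around the S9.6 summit are shown with the summit base in capitals (GRCm38, plus strand, chr17:39843440-39843640), since this is the base with the most fragments of the whole list in each S9.6 library:
Gm26917 summit: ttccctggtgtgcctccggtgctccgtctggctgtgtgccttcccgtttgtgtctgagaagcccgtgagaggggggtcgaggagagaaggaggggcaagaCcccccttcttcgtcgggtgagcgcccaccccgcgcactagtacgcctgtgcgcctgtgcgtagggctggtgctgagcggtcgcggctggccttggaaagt

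The pileup at Gm26917 was 1614 fragments in WT, 1710 in KO, 895 in shControl, 1472 in shDdx5 and 87 without antibody. On the scale of genome-wide enrichment this was 1058 in WT (interval 1007 to 1111), 1309 in KO (1248 to 1373), 619 in shControl (579 to 661), 880 in shDdx5 (835 to 926) and 454 without antibody (364 to 560). No 2 of these intervals overlapped, and the order was KO, WT, shDdx5, shControl, no antibody. The local fold at Gm26917 was not among the high ones of any list. It was 3.28 in WT, 3.54 in KO, 3.75 in shControl, 3.65 in shDdx5 and 3.12 without antibody, and ranked between 3241 and 5426 by local fold in every list. The local background under the peak was itself 142 to 369 times the genome-wide background. By p the peak ranked 2 in each S9.6 list and 3 in the no-antibody list.

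The region of the Gm26917 peak was 68.1% G and C, while the median peak had 50.4 to 53.8% in the S9.6 lists and 43.9% in the no-antibody list. A search of the GRCm38 chromosomes found 2 other stretches of at least 100 bp with at least 90% identity to it. Together they covered 407 of its 3542 bp, and neither carried a peak. Matches on sequences not placed on a chromosome were left out, so this is not a count of all copies. Just outside the window, from 169 bp beyond its edge in shDdx5, all 5 lists had a further peak over CT010467.1 and the noncoding gene Gm42418. There the genome-wide enrichment was 662 in WT, 680 in KO, 375 in shControl, 534 in shDdx5 and 334 without antibody, and the local fold was 1.82 to 2.30. This neighbour was left out of the counts by the 1 kb limit and had the same order of libraries as the Gm26917 peak.

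Gm4076 (ENSMUSG00000096449.2) is a processed pseudogene with a single exon at chr13:85126550-85127514 on the minus strand. Its peaks lay on that exon. The stretch under them, 837 bp, aligned along its whole length to the mitochondrial gene mt-Nd5, which encodes a subunit of respiratory complex I, with 95.2% identity. It aligned equally along its whole length to the pseudogene Gm11407 on chromosome 4, with 95.7% identity. The 121 bases around the shDdx5 summit are shown beside both counterparts to let the closeness of the nuclear and mitochondrial copies be seen. They come from GRCm38: Gm4076 from the plus strand of chr13:85127203-85127323, mt-Nd5 from the minus strand of chrM:12638-12758 and Gm11407 from the minus strand of chr4:80002480-80002600. Capitals mark bases that differ from Gm4076, of which mt-Nd5 has 12 and Gm11407 has 9:
Gm4076: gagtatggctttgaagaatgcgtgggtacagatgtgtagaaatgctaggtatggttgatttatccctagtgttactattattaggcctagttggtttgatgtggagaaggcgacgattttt
mt-Nd5: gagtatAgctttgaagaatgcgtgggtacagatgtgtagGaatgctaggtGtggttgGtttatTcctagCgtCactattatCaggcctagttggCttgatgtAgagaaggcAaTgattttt
Gm11407: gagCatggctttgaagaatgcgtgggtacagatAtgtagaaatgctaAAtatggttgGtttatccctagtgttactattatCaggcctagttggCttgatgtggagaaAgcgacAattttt

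The Gm4076 peak was present in WT, KO, shDdx5 and the no-antibody library and not in shControl. Its pileup was 10 fragments in WT, 9 in KO, 28 in shDdx5 and 8 without antibody. On the scale of genome-wide enrichment, this was 6.56 in WT (3.14 to 12.1), 6.89 in KO (3.15 to 13.1), 16.7 in shDdx5 (11.1 to 24.2) and 41.8 without antibody (18.0 to 82.3). The no-antibody library was the highest of the 4, and the WT and KO intervals lay below its interval. The local fold was 4.36 in WT, 4.34 in KO, 10.8 in shDdx5 and 5.98 without antibody. The peak ranked 42 by p in shDdx5 and 49 in the no-antibody list, but 1305 in WT and 2192 in KO.

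Where the Gm4076 peak was highest differed from list to list. The summits of the 3 S9.6 lists spread over 574 bp, whereas those of the other loci spread over at most 6 bp. The WT and KO summits at Gm4076 rest on 10 and 9 fragments, so their place is uncertain. The recurrent S9.6 peaks of the other loci held 117 fragments or more. The KO, shDdx5 and no-antibody peaks all began at base 85126562, and the alignments to mt-Nd5, Gm11407 and a short stretch of chromosome 10 began at that base too. The WT peak began at 85126863.

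Gm4076 is 1 of 14 nuclear stretches of GRCm38 that share at least 90% identity over at least 100 bp with the mitochondrial genome. The longest 4 of these, from 954 to 4654 bp, each carried peaks in 4 or 5 of the lists, and Gm4076 was the shortest of the 4. Of the other 10, up to 656 bp long, 1 carried a peak, in shDdx5. At the copy of 4654 bp on chromosome 1 the genome-wide enrichment was 9.19 to 12.0 in WT, KO and shDdx5 and 62.7 without antibody, with no shControl peak, the same lists as at Gm4076. At the copy of 3247 bp in Myo3a on chromosome 2 it was 5.53 to 20.3 in the S9.6 lists and 99.2 without antibody. At the copy of 2871 bp on chromosome 4, which holds Gm11407, it was 6.91 to 16.7 in the S9.6 lists and 26.1 without antibody. Each value is that of a list's highest peak anywhere in the copy. On chromosome 4, the stretch aligned to Gm4076 had a peak in the no-antibody list only. The S9.6 values at this copy thus come from other places in it. By this measure the no-antibody value was the highest in all 4 long copies. Over all regions with a peak in both lists, the median ratio of S9.6 to no antibody was also below 1, at 0.429 to 0.513. The weakest no-antibody peak stood at 15.7, above the median peak of every S9.6 list. Nothing particular to these copies is therefore read from this direction. Peaks on nuclear mitochondrial copies made up 0.116% of the no-antibody list and 0.0163 to 0.0771% of the S9.6 lists. These shares rest on few peaks. The no-antibody list had 5 such peaks among its 4314. The WT list (6481 peaks) and the shDdx5 list (11768 peaks) also had 5 each. KO had 4 of 9605 and shControl 2 of 12259. Against WT and shDdx5 the share without antibody was thus higher only because that list is shorter. No enrichment is read from these shares.

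Lars2 (ENSMUSG00000035202.8) encodes the mitochondrial leucyl-tRNA synthetase, which charges mitochondrial tRNA with leucine. It lies at chr9:123366927-123462666 on the plus strand and had 7 of the 20 peaks. Of these, 5 were 1 recurrent peak in the 3′ UTR, and the others were weak peaks of single lists. The first was a shDdx5 peak over the 5′ UTR at chr9:123367332-123367918 with 10 fragments and a local fold of 4.11. The second was an intronic WT peak at chr9:123452294-123452567 with 11 fragments and a local fold of 3.67, and its −log10 q of 1.25 did not reach a q of 0.05.

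The 3′ UTR peak held 246 fragments in WT, 309 in KO, 149 in shControl, 256 in shDdx5 and 17 without antibody. Its genome-wide enrichment was 161 in WT (142 to 183), 237 in KO (211 to 264), 103 in shControl (87.1 to 121), 153 in shDdx5 (135 to 173) and 88.8 without antibody (51.7 to 142). KO was highest, WT and shDdx5 overlapped each other, and the wide no-antibody interval overlapped those of shControl, shDdx5 and, at its edge, WT. The local fold was 29.5 in WT, 32.0 in KO, 23.8 in shControl, 28.5 in shDdx5 and 11.3 without antibody. This was the highest local fold of the WT, KO and shDdx5 lists, the fourth of shControl and the second of the no-antibody list.

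The edge of the Lars2 peak was the same in every list. All 5 peaks began at base 123461792, and they ended between 123462215 and 123462265. Of the 43906 different start positions in the lists, 43442 were found in a single list and 4 were found in all 5, and Lars2 was 1 of these 4. A start in all 5 lists was possible only in the 48 regions with a peak in every list. The S9.6 summits lay within 6 bp of each other, 196 to 202 bp from the start, and the no-antibody summit lay 108 bp from it.

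Sequence like that of the Lars2 peak was found elsewhere up to its first base but not before it. With 1 kb of flank on each side included in the search, 11 other stretches of GRCm38 matched the region at 90% identity or more over 100 bp or more. Of these, 2 began at the first base of the peak, 1 began at the base after it, and the others began 10 to 231 bp inside it. None reached into the flank before the peak, and all ended within 398 bp of the start. The longest was 244 bp in an intron of Gphn on chromosome 12, with 97.5% identity and no peak. A stretch of 232 bp (91.4% identity) in an intron of Cntnap5b on chromosome 1 carried peaks in all 4 S9.6 lists. The no-antibody list had none there. The genome-wide enrichment of the S9.6 peaks was 6.91 to 10.49, below the 15.7 of the weakest no-antibody peak. A peak of that strength could not have been seen without antibody, so nothing is read from its absence. The other 10 stretches carried no peak. The 3′ UTR of mouse Lars2 is known for its likeness to large-subunit ribosomal RNA, and whether these 11 stretches share that origin was not tested.

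**Figure D1:**
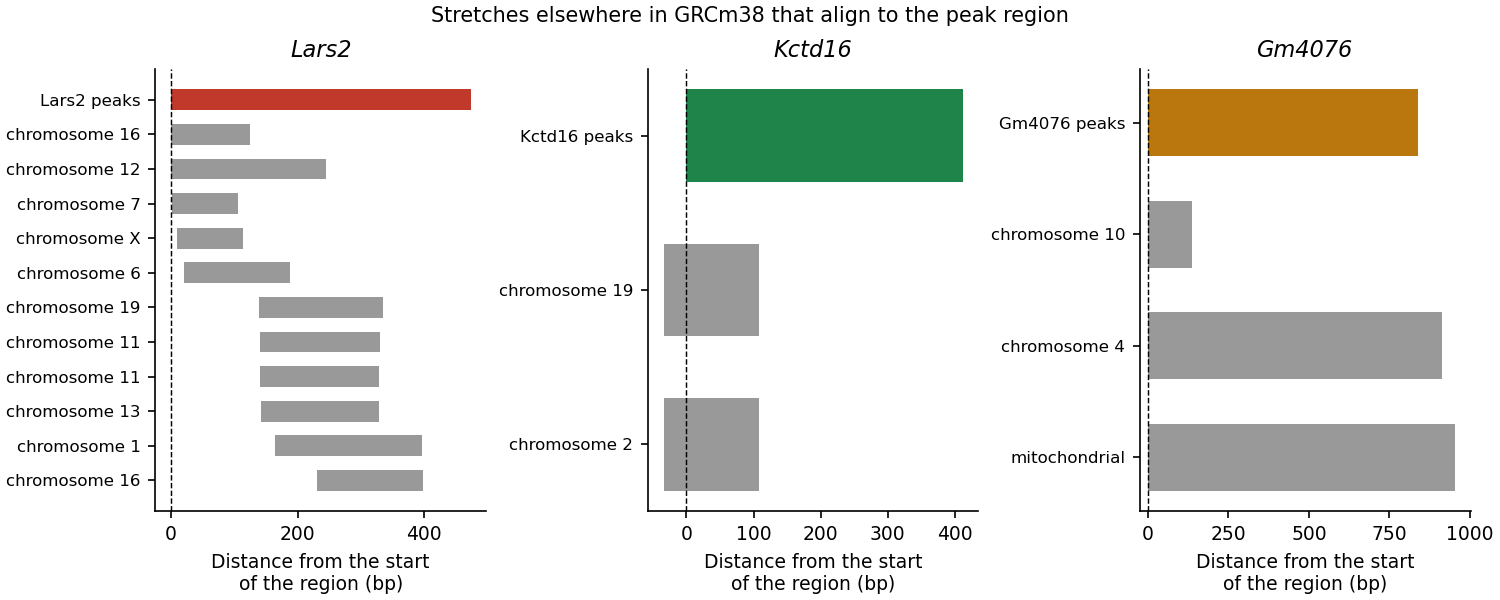
Stretches elsewhere in GRCm38 that align to the peak region of Lars2, Kctd16 and Gm4076, drawn by distance from the start of the region (bp), with the coloured bar for the region covered by the peaks and grey bars for the aligned stretches. The 11 stretches at Lars2 and the 3 at Gm4076 begin at or after the start of the peak, while the 2 at Kctd16 begin 33 bp before it.

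Kctd16 (ENSMUSG00000051401.7) encodes an auxiliary subunit of GABA-B receptors, a protein best known from neurons. The gene lies at chr18:40256962-40531630 on the plus strand, and its 4 peaks formed 1 intronic region at chr18:40308025-40308437, 49440 bp from the nearest annotated start of transcription. The pileup was 224 fragments for WT, 208 for KO, 159 for shControl and 117 for shDdx5. The no-antibody list had no peak at Kctd16.

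The genome-wide enrichment at Kctd16 was 147 for WT (128 to 167), 159 for KO (138 to 182), 110 for shControl (93.5 to 128) and 69.9 for shDdx5 (57.8 to 83.8). WT and KO overlapped, and shDdx5 lay below all the others. The local fold was 28.7 for WT, 28.8 for KO, 27.3 for shControl and 21.9 for shDdx5, which ranked 2, 3, 2 and 4 in the respective lists. The summits lay within 1 bp of each other. Had the no-antibody library the same genome-wide enrichment, its pileup there would be 13.4 to 30.5 fragments, above the 3 fragments of its weakest peak.

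Part of the Kctd16 region has relatives elsewhere. The first 108 bp of the region, with 33 bp before it, aligned to an intron of Fbxw4 on chromosome 19 over 141 bp and to chromosome 2 over 142 bp, both with at least 90% identity. The Fbxw4 stretch carried peaks in WT, KO and shDdx5 with a genome-wide enrichment of 17.3 to 43.9, and none in shControl or without antibody. Neither Kctd16 nor this relative thus had a no-antibody peak. The lowest Fbxw4 value, 17.3, lay close to the 15.7 of the weakest no-antibody peak. The absence of a no-antibody peak therefore says less at Fbxw4 than at Kctd16.

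**Figure D2:**
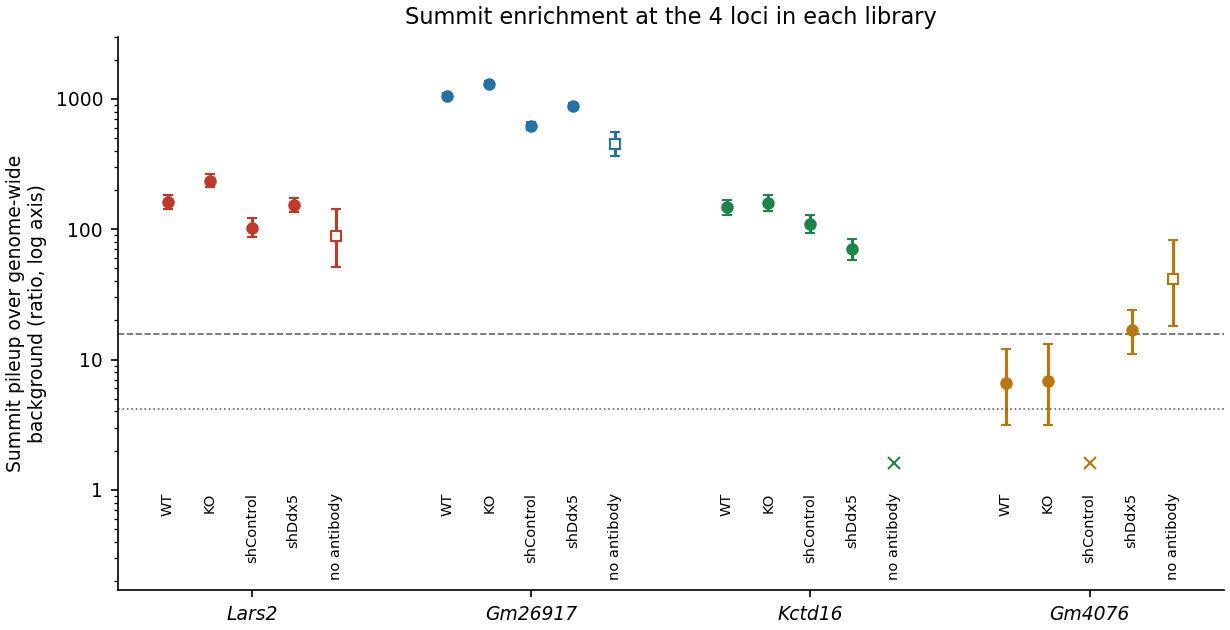
Genome-wide enrichment (summit pileup over the lowest background of the list, log axis) of each locus in the 5 libraries, with filled circles for S9.6, open squares for no antibody, bars for 95% counting intervals and crosses for no peak. The dashed line at 15.7 marks the weakest no-antibody peak and the dotted line at 4.15 the weakest S9.6 peak, and Gm4076 is the locus at which the no-antibody library is highest.

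**Figure D3:**
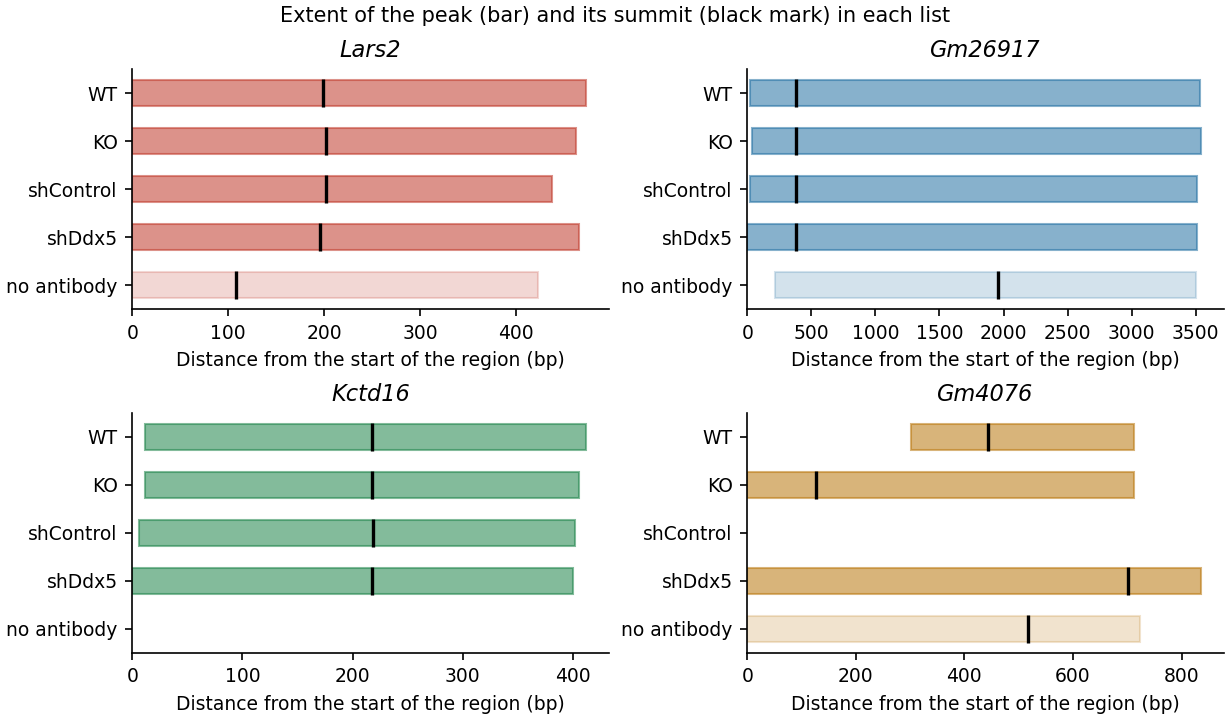
Extent of the peak of each locus in each list, by distance from the start of the region (bp), with a black mark at the summit. The Lars2 bars begin at the same base in all 5 lists, the S9.6 marks of Gm26917 stand at 1 base while the no-antibody mark stands farther along, and the marks of Gm4076 are scattered over its S9.6 bars.

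The S9.6 lists were then set against the no-antibody list. A no-antibody peak was overlapped by 3 of the 5 member peaks in WT (60%, exact binomial interval 14.7 to 94.7%), 3 of 4 in KO (75%, 19.4 to 99.4%), 2 of 3 in shControl (66.7%, 9.43 to 99.2%) and 3 of 5 in shDdx5 (60%, 14.7 to 94.7%). The background share, over all peaks of a list, was 1.23% for WT, 1.15% for KO, 0.832% for shControl and 1.06% for shDdx5. The loci had been picked partly for recurring in the no-antibody list, so nothing is read from the difference. The peaks without a no-antibody partner were those of Kctd16 and the weak single-list peaks of Lars2.

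Where both lists had a peak, the genome-wide enrichments were compared as a ratio of S9.6 to no antibody. For Gm26917 the ratio was 2.33 for WT (1.88 to 2.92), 2.88 for KO (2.32 to 3.62), 1.36 for shControl (1.09 to 1.72) and 1.94 for shDdx5 (1.56 to 2.43). For Lars2 it was 1.82 for WT (1.11 to 3.17), 2.66 for KO (1.64 to 4.63), 1.16 for shControl (0.701 to 2.05) and 1.72 for shDdx5 (1.06 to 3.005). Both loci thus had the higher value with S9.6, beyond counting error except for Lars2 in shControl. The loci had been picked partly for strong peaks in these lists, so nothing is read from that direction. For Gm4076 the ratio was 0.157 in WT (0.0558 to 0.458), 0.165 in KO (0.0565 to 0.491) and 0.401 in shDdx5 (0.178 to 1.02), the opposite direction, beyond counting error in WT and KO.

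Among all regions with a peak in both lists, few had the higher value with S9.6 beyond counting error: 6.9% of 87 for WT, 5.88% of 119 for KO, 1.85% of 108 for shControl and 3.08% of 130 for shDdx5. The lower value beyond counting error was found in 11.5% in WT and 9.24% in KO. The median ratio over these regions was between 0.429 (shDdx5) and 0.513 (KO). The weakest no-antibody peak, at 15.7, sets a ceiling on the ratio of weak S9.6 peaks. On the local fold the ratio for Gm26917 was 1.05 for WT, 1.14 for KO and 1.17 for shDdx5. That for Lars2 in shControl was 2.12 instead of 1.16. That for Gm4076 was 0.729 for WT and 0.725 for KO, nearer to 1 than on the genome-wide scale, and 1.81 for shDdx5, on the other side of 1. The size of these ratios thus depends on which background is used, and for Gm4076 in shDdx5 the direction does too.

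**Figure D4:**
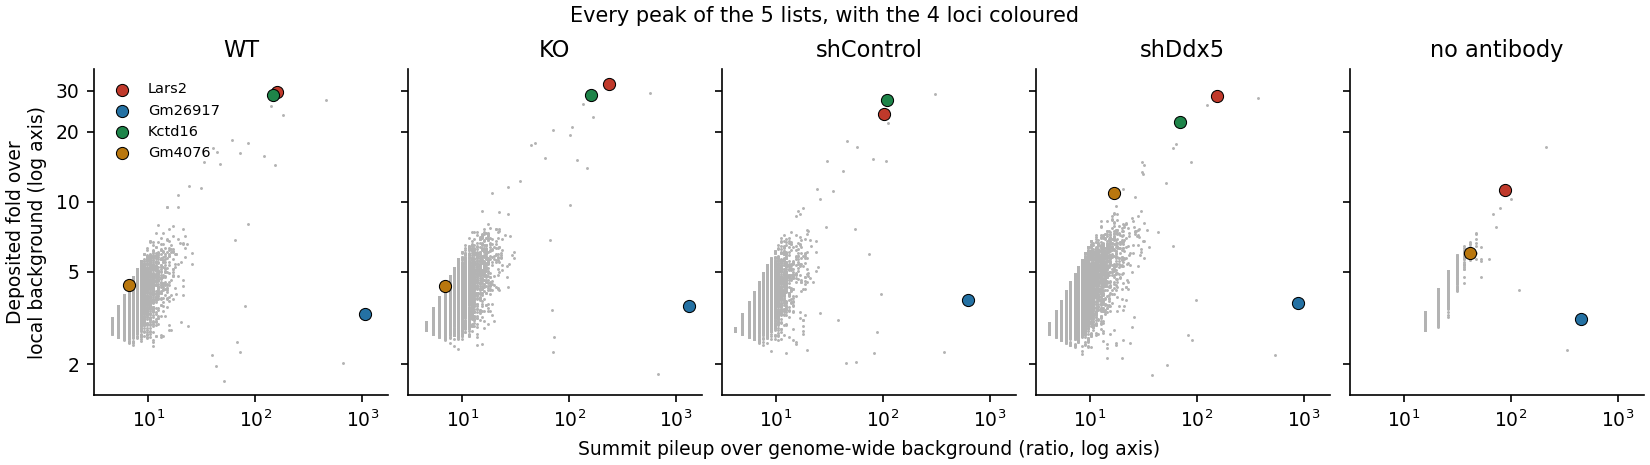
Local fold against genome-wide enrichment (both log axes) for every peak of the 5 lists, 1 panel per list, with the 4 loci coloured and all other peaks in grey. Gm26917 stands at the far right with a local fold of 3.12 to 3.75, Lars2 and, in the S9.6 panels, Kctd16 stand near the top, and Gm4076 stands within the cloud in WT and KO and at its upper edge in shDdx5.

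The study compared KO with WT cells to ask whether R-loops increase without MCM8. The ratio of genome-wide enrichment, KO over WT, was 1.47 at Lars2 (1.24 to 1.74), 1.24 at Gm26917 (1.15 to 1.32), 1.08 at Kctd16 (0.893 to 1.32) and 1.05 at Gm4076 (0.378 to 2.88). The median over the 1611 regions with a peak in both lists was 1.17, and 1.43% of them were higher in KO beyond counting error, Lars2 and Gm26917 among them. The interval of Lars2 lay above that median, and those of the other 3 loci included it. On the local fold the ratio was 1.08 at both Lars2 and Gm26917, below their counting intervals, and 1.00 at Kctd16. Both loci have at least 246 fragments in these libraries, which narrows their intervals, whereas the median peak has 10 fragments in WT and 9 in KO.

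In the knockdown pair the loci parted. The ratio of shDdx5 to shControl was 1.49 at Lars2 (1.21 to 1.83) and 1.42 at Gm26917 (1.31 to 1.55), both above the median of 1.11 over 2389 regions. At Kctd16 it was 0.636 (0.497 to 0.813), below it. Of the 2389 regions, 2.09% were higher in shDdx5 beyond counting error and 0.251% were lower, and Kctd16 was 1 of these 6. At Kctd16, 46 regions had a lower ratio and 2342 a higher one. Gm4076 had no shControl peak, so no ratio was formed. On the local fold the ratio was 0.972 at Gm26917, 1.19 at Lars2 and 0.802 at Kctd16, so the direction at Gm26917 depended on the background used and those at Lars2 and Kctd16 did not.

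**Figure D5:**
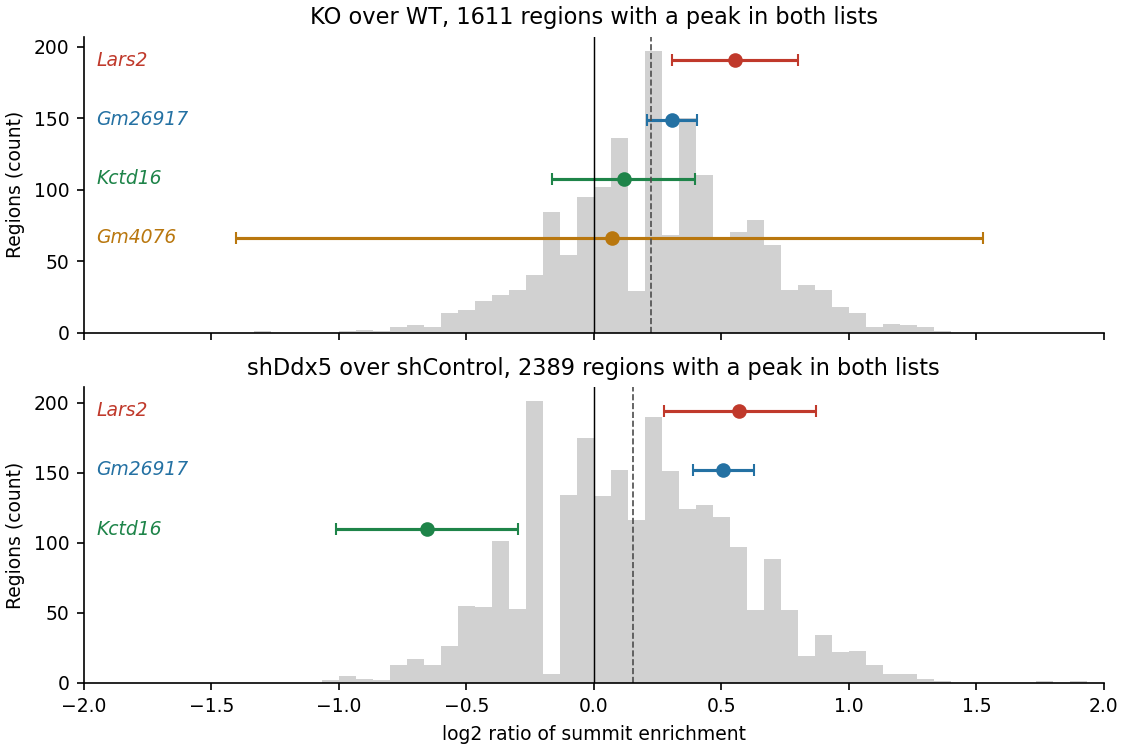
Log2 ratio of genome-wide enrichment for KO over WT (1611 regions) and shDdx5 over shControl (2389 regions), with grey bars counting all regions with a peak in both lists, coloured points for the loci with 95% counting intervals, a solid line at no difference and a dashed line at the median. Lars2 and Gm26917 lie to the right of the solid line in both panels, and Kctd16 lies to its left in the knockdown panel.

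The recurrence of Lars2 and Gm26917 was shared by few places. Overlapping peaks of the 5 lists joined into 36257 regions, of which 48 had a peak in every list, Lars2 and Gm26917 included. The 5 others with the best ranks by p were an intergenic region at chr11:109011646-109012174, an intergenic region at chr2:181917429-181918349, an intron of Aida at chr1:183299157-183299575, an intergenic region at chr15:75085504-75086329, and the CT010467.1 and Gm42418 region beside Gm26917. The chr11 region ranked 1 by p in all 5 lists, with a genome-wide enrichment of 306 to 569 with S9.6 and 214 without antibody. The Aida region reached 51.4 to 120 with S9.6 and 78.3 without antibody. Kctd16 belonged instead to the 802 regions with a peak in all 4 S9.6 lists and none without antibody, here ordered by their worst rank by p over the 4 lists. An intron of Zc3h7a at chr16:11143924-11144297, with 96.1 to 142, came first. Kctd16 shared the next place, a worst rank of 7, with an intergenic region at chr15:75086677-75087038. Membership of the 802 depends in part on depth. The weakest no-antibody peak stood at 15.7, so regions below that could not have had one at the same genome-wide enrichment. Kctd16, at 69.9 to 159, lay above it.

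Genes of the same kinds were counted for comparison, with a peak counted within 1 kb of the gene body. Of all 55413 genes annotated on the chromosomes of the lists, 9.4% had a peak in the list for WT, 12.9% for KO, 14% for shControl, 16.2% for shDdx5 and 4.11% for no antibody. Of the 21938 protein-coding genes among them, it was 19.2% for WT, 26.1% for KO, 27.8% for shControl, 32.7% for shDdx5 and 7.99% for no antibody. Among 19 other genes annotated over ribosomal RNA copies or satellite repeats, 6 had a peak in WT, 6 in KO, 7 in shControl, 7 in shDdx5 and 4 without antibody. Those 4 were CT010467.1, Gm42418 and AY036118, which share the chr17 regions above, and Sfi1, a gene with many partial copies, at 71.2 to 97.4 with S9.6 and 120 without antibody. Of 7 pseudogenes on the mitochondrial copy of chromosome 1, 7 had a peak in WT, 3 in KO, 0 in shControl, 4 in shDdx5 and 7 without antibody, and Gm10222, Gm28438, Gm28439 and Gm28437 recurred most. These pseudogenes lie side by side and share their peaks, so the counts rest on 2 peaks in WT, 1 in KO, 1 in shDdx5 and 2 without antibody.

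The gene families of Lars2 and Kctd16 were counted in the same way. Of 16 other mitochondrial aminoacyl-tRNA synthetase genes, 6 had a peak in WT, 5 in KO, 3 in shControl, 6 in shDdx5 and 3 without antibody. Fars2, the phenylalanine enzyme, had a peak somewhere in the gene in all 5 lists, and Nars2 and Cars2 followed with peaks in 3 and 2 lists. The highest Fars2 peak of a list had a genome-wide enrichment of 5.36 to 11.4 with S9.6 and 20.9 without antibody. Fars2 held 2 peaks in WT, 1 in KO, 3 in shControl, 2 in shDdx5 and 2 without antibody. Whether they lie at the same place is not shown here. Of 20 other KCTD genes, 7 had a peak in WT, 6 in KO, 11 in shControl, 11 in shDdx5 and 1 without antibody. Kctd7, Kctd9, Kctd11 and Kctd21 had one in each S9.6 list, and the highest of these was Kctd9 at 15.2 to 28.1, below every value of Kctd16. Since the loci had been picked partly for strong peaks, nothing is read from Kctd16 being higher.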

How the data were processed

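Per the labels and methods, the authors trimmed reads, aligned them to mm10 with bowtie2 and called peaks per library with MACS2, with no input in MEFs. The methods name MACS2 2.2.7.1 and the submitters' processing notes 2.1.2. The deposited values were the fold (a ratio) at the summit over local background, −log10 p and −log10 q. Whether duplicate fragments were removed is not given in the sources used here.

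Pileup and local background were solved from fold and p, assuming the (pileup + 1) over (background + 1) form of MACS2, for all 44427 peaks. The step was tested on simulated data. Peaks were shared at 1 bp in common. Level intervals are exact Poisson intervals, and ratio intervals are exact binomial (Clopper-Pearson) intervals on the 2 pileups. Copies were sought with blastn 2.17.0 in GRCm38 (identity 90%, 100 bp), and GC was taken from GRCm38. Matches on sequences not placed on a chromosome were not counted. RefSeq sequences of that build were printed. Scripts ran in Python 3.11.15, numpy 2.4.6, scipy 1.17.1, pandas 2.3.3, pysam 0.24.0 and matplotlib 3.10.9. The HEK293 lists were not used here.

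The members, gene lists and alternatives were chosen with earlier results of these data known. Named genes were the 4 loci, the 5 best-ranked other regions with peaks in all 5 lists and up to 4 genes of each list with peaks in the most lists, of which 1 is not reported here. Other regions and copies were named after their values were seen.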

Additional observations from a re-analysis of the deposited data

Results flagged for a closer look

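The Kctd16 ratio was on opposite sides of 1 in the 2 pairs of libraries. The ratio of genome-wide enrichment was 1.08 for KO over WT and 0.636 for shDdx5 over shControl. The interval of the first (0.893 to 1.32) includes 1, its value on the local fold was 1.00, and both ratios lay below the medians over all regions (1.17 and 1.11). With 1 library per group the difference between the 2 ratios was not tested.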

How the results depend on the processing

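The counts of member peaks, of those with a no-antibody peak and the median ratios over the loci were recomputed with a q of 0.05 or 1e-05, 50% overlap of both peaks, the summit inside the no-antibody peak, no margin or 5 kb around the genes, the strongest 4314 peaks of each list, the median recovered background, the local background, and pileup times width. At a q of 1e-05 the WT count was 3 instead of 5. With the local background (the local fold), the median ratio over the loci was 1.05 for WT over no antibody instead of 1.82, 1.14 for KO over no antibody instead of 2.66, and 0.972 for shDdx5 over shControl instead of 1.42, which turned its direction through Gm26917 (0.972). Local and genome-wide background differ most at Gm26917. The other 67 of these values moved by less than the limit set for them. Of the values for single loci, 41 stayed within their counting interval and 12 left it. A further 1 left an interval that excluded 1 and turned direction. It was Gm26917 for shDdx5 over shControl, from 1.42 to 0.972 on the local background. Of the 12, 1 crossed to the other side of 1. It was Gm4076 for shDdx5 over no antibody, from 0.401, with an interval that included 1, to 1.81 on the local background. No paired analysis was possible because each group held 1 library and no result comes from a test, and for the same reason no library could be left out. Depth limits the no-antibody values most: they rest on 17 fragments at Lars2 and 8 at Gm4076.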

Other observations

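Some peaks of several lists began at exactly the same base. Besides Lars2, the starts found in all 5 lists were at chr11:109011646, chr15:75085504 and chr17:36231253, all between genes. Of the 8 starts found in 4 lists, 2 were the first base of a nuclear mitochondrial copy, on chromosome 1 and in Myo3a on chromosome 2. The region that begins at chr15:75085504 holds stretches with 8301 relatives of at least 90% identity and 100 bp on the nuclear chromosomes, while the region at chr11:109011646 had 0 by the same search.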
